A study of Mus musculus with 22 samples.

Results

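Ribosomal RNA and long noncoding RNAs of the hippocampus were followed in TgproNGF#3 mice and wild-type (WT) mice of 3 ages, 1, 3 and 12 months. The genes chosen were Rn18s, the RNA of the small ribosomal subunit, 3 noncoding RNAs of the imprinted Dlk1-Dio3 region (Meg3, Rian and Mirg), and the nuclear or neuronal noncoding RNAs Malat1, Neat1, Miat, Snhg11 and Rmst. Rn18s and Mirg were chosen by their measured Log2 FC between the genotypes, and the other genes were added as noncoding RNAs with those results known. Members were all array probes assigned to these genes, which gave 8 of 55681 non-control probes, covering 5 of the 9 genes (21267 genes had a named probe in the whole series). Rn18s, Malat1 and Neat1 had 1 probe each, Mirg had 2 and Meg3 had 3. No probe could be matched to Rian, Miat, Snhg11 or Rmst, and these genes are not analysed here.

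Each of the 22 samples was the right hippocampus of 1 untreated mouse of the strain C57Bl/6xDBA/2, hybridised to a one-colour Agilent array. Males were used at 1 month (4 TgproNGF#3, 4 WT) and at 3 months (4 TgproNGF#3, 4 WT), and females at 12 months (3 TgproNGF#3, 3 WT). TgproNGF#3 mice carry a proNGF that furin cannot cleave, followed by an IRES and EGFP, under the brain-specific Thy1.2 promoter, and all of them belong to 1 of 4 founder lines. The 3 ages lay on 3 separate slides, so a comparison between ages carries both age and slide. A comparison with 12 months also carries sex, and these effects cannot be told apart. At 1 month all TgproNGF#3 arrays lay in columns 3 and 4 of the slide and all WT arrays in columns 1 and 2. Genotype and column therefore cannot be told apart at that age. At 12 months all TgproNGF#3 arrays lay in row 2, and of the WT arrays only replicate 3 did. The labels describe total RNA with an integrity number of at least 8, and then labelling of 200 ng of poly A+ RNA. The files do not show whether poly A+ RNA was in fact selected in every sample, which limits what the Rn18s signal can check.

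Ribosomal RNA is made by RNA polymerase I in the nucleolus and has no poly A tail, so the Rn18s probe was read beside the others as a check of RNA preparation. Malat1 is a nuclear RNA of the splicing speckles, and Neat1 is the scaffold of paraspeckles. Meg3, Rian and Mirg are expressed from the maternal chromosome, from a domain that is active in brain and that holds one of the large microRNA clusters of the mouse genome. Mirg is a host transcript of part of that cluster.

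The microRNAs that Mirg hosts are shown because they are the functional content of this member. In RefSeq's annotation of GRCm38.p6, 19 mature microRNAs of 20 to 25 bases lay inside Mirg on the plus strand, against 6 inside Rian and 3 inside Meg3. The 19 mature microRNAs had 18 distinct seeds (bases 2 to 8, in capitals below). Only miR-453 and miR-496a-5p shared a seed, GGUUGCC, and the seeds of 2 more, miR-409-5p and miR-410-5p, differed from it at 1 base. The opposite arm of the miR-410 hairpin, listed last, has an unrelated seed.
mmu-miR-453 (chr12:109735669-109735692): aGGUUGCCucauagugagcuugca
mmu-miR-496a-5p (chr12:109739132-109739152): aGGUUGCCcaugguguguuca
mmu-miR-409-5p (chr12:109743172-109743194): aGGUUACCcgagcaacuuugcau
mmu-miR-410-5p (chr12:109743729-109743749): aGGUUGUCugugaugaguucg
mmu-miR-410-3p (chr12:109743764-109743784): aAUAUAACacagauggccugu
These microRNAs were not measured on the arrays analysed here, which read the host transcript only.

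Levels below are log2 intensities relative to the 75th percentile of the same array, so that 0 is the 75th percentile and 1 unit is 2-fold. They are compared between arrays for 1 probe, never between probes. Log2 FC is the TgproNGF#3 mean minus the WT mean. A probe was called when its unadjusted limma p was below 0.05 and its Log2 FC was over 1 in size. The 8 probes were well above background on all 22 arrays, and none was saturated. The share of spots well above background ran from 57.6% to 80.3% over the arrays, and was 57.6 to 64.7% in TgproNGF#3 and 62.9 to 64.1% in WT at 3 months. The 75th percentile of unscaled log2 intensity was 10.8 to 11.8 in TgproNGF#3 and 10.72 to 11.5 in WT at that age. Nothing in the labels says that samples of a group were other than separate mice, but p-values measure only the spread between these samples.

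Among the 8 probes, 1 was called lower in TgproNGF#3 at 1 month (a Mirg probe), 2 at 3 months (the same Mirg probe and Rn18s) and 0 at 12 months, and none was called higher at any age. Over all probes tested, the shares called lower at the 3 ages were 0.328%, 6.12% and 0.992%, and the shares called higher were 0.242%, 0.643% and 0.311%. The groups did not overlap for 1, 2 and 0 of the 8 probes, against 3.32%, 20.3% and 15.5% of all probes at the 3 ages. Rn18s and this Mirg probe could be named only through the authors' table of called probes, which rests on these same contrasts. Their differences are therefore given as a description with no p, and their calls support nothing. The other 6 probes were found by RefSeq accession, and none of them was called at any age. For these 6, at an unadjusted p below 0.05, only Neat1 at 1 month and Malat1 at 3 months passed, and no adjusted p was below 0.05.

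**Figure D1:**
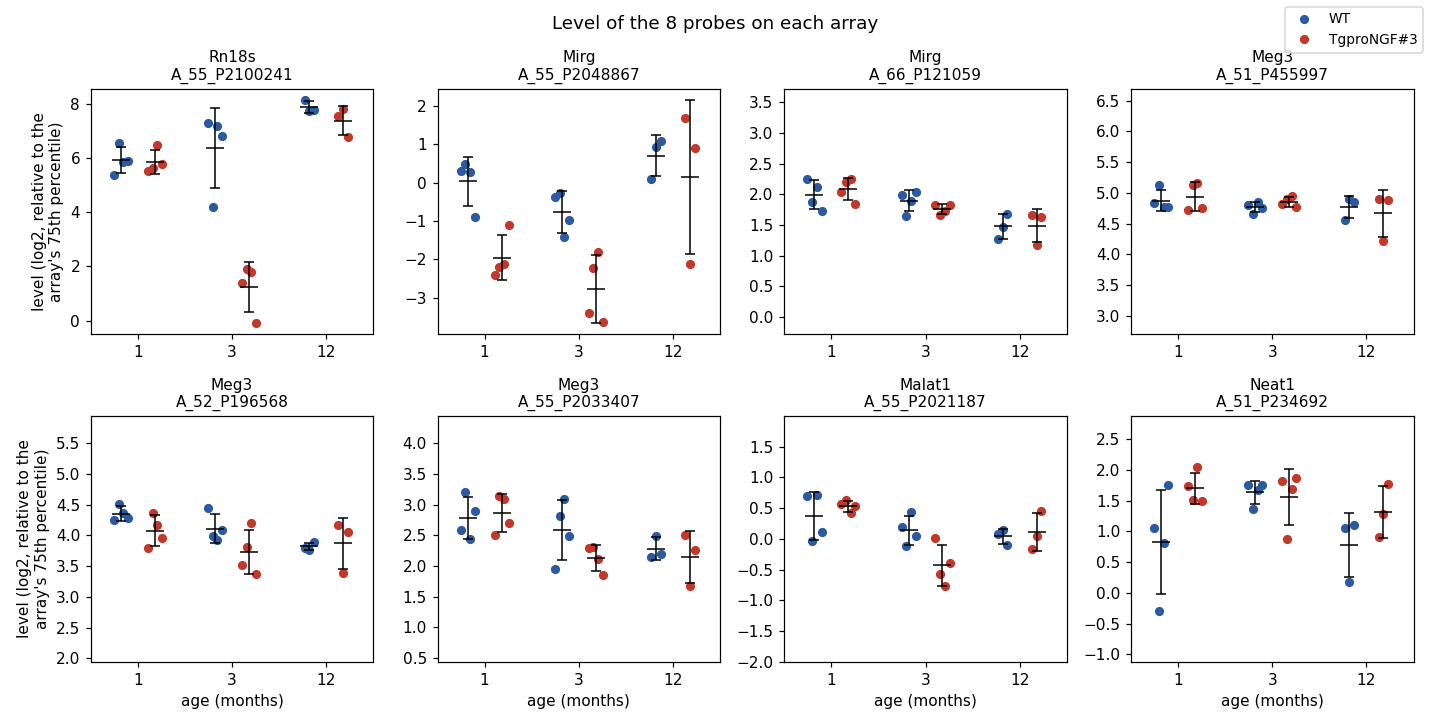
Level of each of the 8 probes (vertical axis, log2 relative to the array's 75th percentile) by age in months, with 1 point per mouse, WT in blue and TgproNGF#3 in red, and black bars for the mean ± SD. The Rn18s probe falls to between -0.10 and 1.90 in TgproNGF#3 at 3 months while the WT mice lie between 4.19 and 7.27, and the groups of Mirg probe A_55_P2048867 do not overlap at 1 and 3 months while those of the second Mirg probe do.

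Rn18s stood far below WT in TgproNGF#3 at 3 months. The level of probe A_55_P2100241 was 1.39, 1.90, 1.81 and -0.10 in the 4 TgproNGF#3 mice and 7.27, 4.19, 7.18 and 6.81 in the 4 WT mice. All TgproNGF#3 mice lay below all WT mice, and the WT mouse at 4.19 stood apart from the other 3. The Log2 FC was -5.11 ± 0.70 (SE, n = 4 and 4), 34.6-fold lower, and it was -5.84 without that WT mouse. The same was seen in the unscaled intensity, which was 8008, 8181, 6420 and 3309 in TgproNGF#3 and 267013, 52912, 244344 and 260018 in WT.

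At the other ages the Rn18s groups overlapped. At 1 month the level was 5.53, 5.63, 6.49 and 5.77 in TgproNGF#3 and 5.36, 6.54, 5.84 and 5.89 in WT, a Log2 FC of -0.06 ± 0.29 (SE, n = 4 and 4). At 12 months it was 7.53, 7.80 and 6.78 in TgproNGF#3 and 8.14, 7.73 and 7.75 in WT, a Log2 FC of -0.50 ± 0.27 (SE, n = 3 and 3). Ordered by mean, the 6 groups ran from WT at 12 months (7.87 ± 0.23, SD, n = 3) through TgproNGF#3 at 12 months (7.37 ± 0.53), WT at 3 months (6.36 ± 1.46), WT at 1 month (5.91 ± 0.49) and TgproNGF#3 at 1 month (5.85 ± 0.43) to TgproNGF#3 at 3 months (1.25 ± 0.93). The last was the only group whose values did not overlap those of its neighbour in this order.

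Other structural RNAs on the array were read beside Rn18s. These 11 probes were gathered with their values known, and support nothing about Rn18s. Of them, 10 were found by RefSeq accession and RNA class. Rs5-8s1 could be named only through the authors' table of called probes, so its call was set by how it was found, and 6 of the 11 stand in that table and are given without a p. Of the 11, 0 were called lower at 1 month, 6 at 3 months and 2 at 12 months, beside 0.328%, 6.12% and 0.992% of all probes, and none was called higher. Negative values were found in 10, 10 and 11 of the 11 probes, with a median Log2 FC of -0.37, -1.25 and -0.56 beside 0.07, -0.12 and 0.01 for all probes. The groups did not overlap for 0, 5 and 7 of them, beside 3.32%, 20.3% and 15.5% of all probes. Over the 10 probes without Rs5-8s1, a count added after seeing the data, 0, 5 and 2 were called lower, the median was -0.34, -1.12 and -0.42, and the groups did not overlap for 0, 4 and 7. With the spike-in controls as scale, a planned scale that was applied to the whole of this list only after seeing the data, 3, 5 and 0 were called lower, and 6 of 11 were negative at 12 months with a median of -0.04. On that scale Rn28s1, Rs5-8s1 and Rnu1b6 had the same SE (0.69) at 3 months, so their calls do not reflect the spread of each probe. With each mouse left out, also chosen after seeing the data, 0 to 2 were called lower at 1 month and 5 to 7 at 3 months. At 12 months 4 were called without TgproNGF#3 replicate 1, WT replicate 2 or WT replicate 3, and 1 without TgproNGF#3 replicate 3. Rs5-8s1, the 5.8S RNA of the large ribosomal subunit, was at -4.94, -4.04, -3.71 and -3.25 in TgproNGF#3 and at 0.61, -1.41, 1.14 and 1.39 in WT at 3 months, a Log2 FC of -4.42 ± 0.59. Rnu1b6, a U1 RNA that recognises the 5′ splice site, was at -1.55, -0.30, -0.25 and -1.71 against 4.02, 2.40, 3.21 and 4.05, a Log2 FC of -4.37 ± 0.46. Both had groups that did not overlap, as Rn18s had.

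Rn28s1, the large RNA of the large subunit, did not follow Rn18s in every mouse. Its level at 3 months was 1.82, 4.63, 5.36 and 1.84 in TgproNGF#3 and 5.86, 4.996, 5.01 and 5.63 in WT. Replicates 1 and 4 of TgproNGF#3 were low, and replicates 2 and 3 lay near or within the WT range, although Rn18s was low in all 4. The Log2 FC was -1.96 ± 0.77 (limma adjusted p = 0.137). It was -1.43 ± 0.75 without TgproNGF#3 replicate 1 and -1.44 ± 0.73 without replicate 4, and its call was lost in both cases and also without WT replicate 1 or 4.

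The remaining structural RNAs differed in size. Rnu2-10, a U2 RNA of the spliceosome, had a Log2 FC of -4.14 ± 0.48 at 3 months, with 3 TgproNGF#3 mice because the probe was not well above background on the array of replicate 4. The unscaled intensity was 30.3, 41.1 and 36.1 in those 3 mice, beside 34.8 on the dropped array. All 4 lay near the floor, which limits what the size of this Log2 FC can mean. Snora74a, a small nucleolar RNA, was at -1.47 ± 0.35, and Rnu3b1, a U3 RNA of ribosomal RNA processing, at -1.25 ± 0.24. Rmrp, the RNA of the RNase MRP, was at -0.99 ± 0.36 and was not called (limma adjusted p = 0.119). Smaller values were found for the minor-spliceosome RNA Rnu12 (-0.36 ± 0.17), for Rn4.5s (-0.31 ± 0.20), for the small nucleolar RNA Snora47 (-0.64 ± 0.30) and for the telomerase RNA Terc (0.22 ± 0.28), none of which was called. The 2 called at 12 months were Rnu3b1 (-1.33 ± 0.36) and Rnu2-10 (-1.33 ± 0.39), and Snora47 was at -0.94 ± 0.28 with groups that did not overlap.

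**Figure D2:**
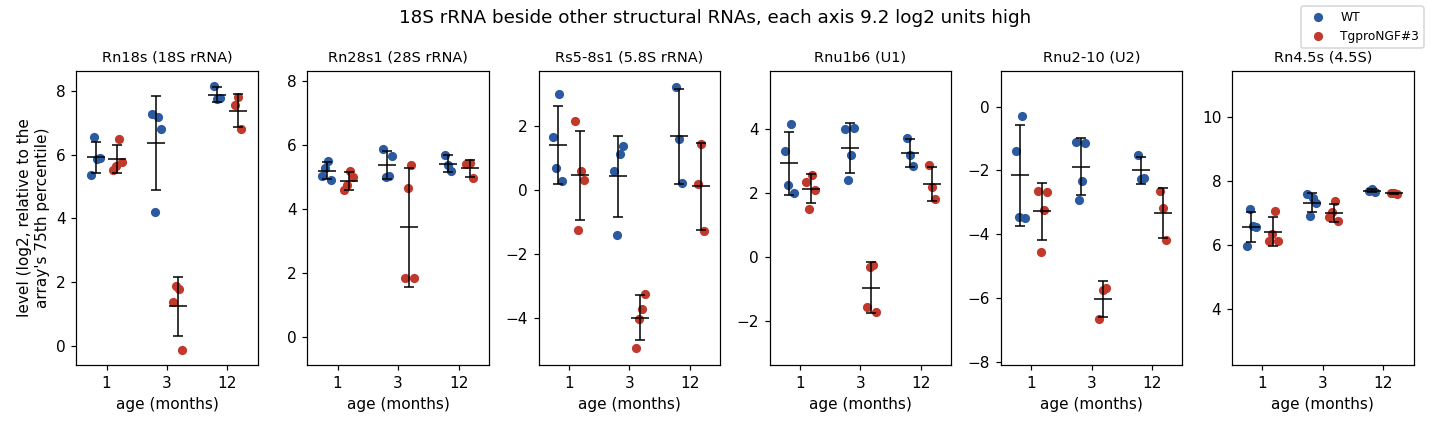
Level (log2 relative to the array's 75th percentile) of Rn18s and 5 other structural RNAs by age in months, with 1 point per mouse, WT in blue, TgproNGF#3 in red and black bars for the mean ± SD, on vertical axes of equal height. At 3 months the TgproNGF#3 mice are below all WT mice for Rn18s, Rs5-8s1, Rnu1b6 and Rnu2-10, only replicates 1 and 4 are low for Rn28s1, and the groups overlap for Rn4.5s.

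After subtraction of the WT mean of each age, the level of Rn18s over the 22 arrays had a Pearson correlation of 0.92 with Rnu1b6, 0.82 with Rs5-8s1, 0.81 with Snora74a, 0.78 with Rn28s1 and 0.72 with Rmrp. It was 0.59 with Rnu3b1, 0.54 with Rn4.5s, 0.40 with Snora47, 0.34 with Rnu12 and -0.14 with Terc. Among 28898 probes, the 5 named genes most like Rn18s by this measure were Atp8a1 (0.963), Nfib (0.953), Zfp36l3 (0.948), Jakmip1 (0.947) and Frrs1l (0.947), with Log2 FC at 3 months of -1.99, -2.17, -1.59, -1.46 and -1.77. The points share arrays and their scaling, and the 4 TgproNGF#3 arrays of 3 months weigh most in each value, so these correlations are a description.

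The genes that make and process ribosomal RNA were listed as well. Of 46 probes tested for 34 genes of RNA polymerase I transcription and ribosomal RNA processing, 0 were called at 1 month, 1 lower at 3 months (2.17%, beside 6.12% of all probes) and 1 higher at 12 months (2.17%, beside 0.311%). The groups did not overlap for 0, 10 and 11 of the 46, beside 3.32%, 20.3% and 15.5% of all probes. The median Log2 FC of the list was 0.12, -0.05 and 0.15 at 1, 3 and 12 months, beside 0.07, -0.12 and 0.01 for all probes. Both calls were the same Polr1b probe, for the second largest subunit of RNA polymerase I, which was at -1.34 ± 0.46 at 3 months (limma adjusted p = 0.0989) and at 2.11 ± 0.69 at 12 months (limma adjusted p = 0.549).

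Values of the cell-type markers are given beside the fall of Rn18s, and their part in it was not tested. Probes of all 30 marker genes could be tested at each age, among them those of the dentate granule neurons (Prox1, C1ql2) and pyramidal neurons (Wfs1, Neurod6) of the hippocampus. At 3 months the general neuronal markers (Rbfox3, Snap25, Syt1 and Tubb3) had Log2 FC between -0.65 and 0.15, and the interneuron markers Gad1 and Gad2 were at 0.63 ± 0.20 and 0.39 ± 0.21. Of 43 marker probes, 2 were called lower (4.65%, beside 6.12% of all probes) and 1 higher (2.33%, beside 0.643%) at that age. The oligodendrocyte marker Mbp was called lower by 1 probe (-1.11 ± 0.33, limma adjusted p = 0.0688), and its other probes were at -0.97 and -0.51. The astrocyte marker Aqp4 was called higher by 1 probe (1.04 ± 0.31, limma adjusted p = 0.0714), and its other probe was at -0.04. In blood, the haemoglobin gene Hbb-b1 was lower (-2.17 ± 0.17, limma adjusted p = 0.00065), while Hba-a1 had a Log2 FC of 0.01 ± 0.15. In whole tissue, fewer cells of a type and less RNA per cell cannot be told apart.

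The 2 probes of Mirg gave different results. No probe sequence was at hand, so the Mirg and Meg3 probes could not be placed on their transcripts, and whether 2 probes of a gene read the same isoforms is not known here. Probe A_55_P2048867, designed to the transcript EU616813, was at -2.42, -2.20, -2.13 and -1.09 in TgproNGF#3 and at 0.30, 0.48, 0.28 and -0.91 in WT at 1 month. The groups did not overlap, but the WT mouse at -0.91 and the TgproNGF#3 mouse at -1.09 lay next to each other, and that WT mouse stood apart from the other 3. The Log2 FC was -1.999 ± 0.36 (SE, n = 4 and 4), 4.00-fold lower, and -2.31 without that WT mouse. At 3 months the values were -3.40, -2.23, -1.80 and -3.64 against -0.38, -0.28, -1.42 and -0.98, again with no overlap, and the Log2 FC was -2.01 ± 0.43, 4.02-fold lower.

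At 12 months this probe spread widely in TgproNGF#3, at 1.69, -2.12 and 0.90, while WT was at 0.09, 0.92 and 1.09. Replicate 2 was the only low mouse, and the 2 others lay within or above the WT range. The Log2 FC of -0.54 ± 0.89 turned to 0.59 without replicate 2.

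Probe A_66_P121059, designed to the RefSeq transcript NR_028265 of Mirg, had a Log2 FC near 0 at each age. Its level was at 2.03, 2.19, 2.25 and 1.85 in TgproNGF#3 and 2.25, 1.88, 2.12 and 1.73 in WT at 1 month, at 1.83, 1.66, 1.73 and 1.83 against 1.99, 1.65, 1.89 and 2.04 at 3 months, and at 1.66, 1.18 and 1.63 against 1.28, 1.47 and 1.68 at 12 months. The groups overlapped at every age. The Log2 FC was 0.09 ± 0.18, -0.13 ± 0.14 and 0.01 ± 0.19 at 1, 3 and 12 months, and none passed (limma adjusted p = 1.00, 0.565 and 0.986). The range between the 2 Mirg probes was 2.08, 1.87 and 0.56 log2 units of Log2 FC at the 3 ages. Over the 22 arrays, after subtraction of the WT mean of each age, the 2 probes had a Pearson correlation of 0.26.

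**Figure D3:**
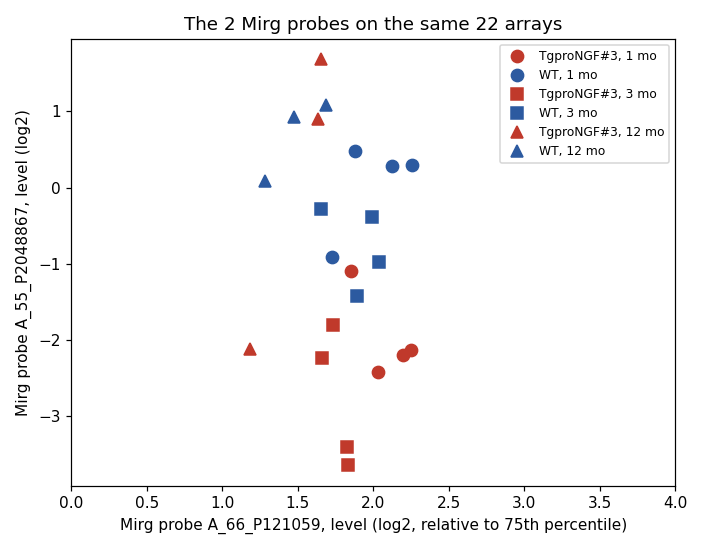
Level of Mirg probe A_55_P2048867 (vertical axis) against Mirg probe A_66_P121059 (horizontal axis), both log2 relative to the array's 75th percentile, with 1 point for each of the 22 mice, colour for genotype and shape for age. The TgproNGF#3 mice of 1 and 3 months lie low on the vertical axis, between -3.64 and -1.09, but not on the horizontal axis, where they lie between 1.66 and 2.25 beside WT mice at 1.65 to 2.25.

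Meg3, the long noncoding RNA at the start of the maternal transcripts of the domain, passed the test at no age with any of its 3 probes. Probe A_51_P455997 was at 4.72, 5.12, 5.16 and 4.75 in TgproNGF#3 and 4.84, 5.13, 4.76 and 4.77 in WT at 1 month. It was at 4.81, 4.89, 4.95 and 4.77 against 4.80, 4.66, 4.85 and 4.76 at 3 months, and at 4.90, 4.22 and 4.88 against 4.56, 4.90 and 4.84 at 12 months. The groups overlapped at every age, and at 12 months only replicate 2 of TgproNGF#3 was low. The same mouse was low for Mirg probe A_55_P2048867. For Mirg probe A_66_P121059 it was the lowest by little, at 1.18 beside a WT mouse at 1.28. The Log2 FC was 0.06 ± 0.18, 0.09 ± 0.12 and -0.10 ± 0.22 (limma adjusted p = 1.00, 0.677 and 0.867).

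The 2 other Meg3 probes had larger negative values at 3 months. Probe A_52_P196568, of another RefSeq transcript (NR_003633), was at 3.51, 3.81, 4.19 and 3.38 in TgproNGF#3 and 4.44, 3.99, 3.92 and 4.09 in WT, a Log2 FC of -0.39 ± 0.20 (limma adjusted p = 0.256). It ran from -0.54 to -0.27 with each mouse left out, and at -0.54, without TgproNGF#3 replicate 3, the unadjusted p was below 0.05 and the limma adjusted p was 0.0886. Probe A_55_P2033407 was at 2.29, 2.30, 2.11 and 1.85 against 1.96, 2.81, 3.09 and 2.48, a Log2 FC of -0.45 ± 0.24 (limma adjusted p = 0.260). The value of A_55_P2033407 was -0.28 without WT replicate 3 and -0.66 without WT replicate 1, where the unadjusted p was below 0.05 and the limma adjusted p was 0.109. Both pairs of groups overlapped. At 1 month the 2 probes were at -0.28 ± 0.18 and 0.08 ± 0.23, and at 12 months at 0.05 ± 0.21 and -0.13 ± 0.23. The range over the 3 Meg3 probes was 0.36, 0.54 and 0.18 log2 units at 1, 3 and 12 months.

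Within the region, the level of Mirg probe A_55_P2048867 had a Pearson correlation over the 22 arrays of 0.80 with Meg3 probe A_52_P196568, 0.33 with A_55_P2033407 and 0.21 with A_51_P455997. The 5 named genes most like Meg3 probe A_51_P455997 were Whrn (0.844), Pkd1 (0.808), Usp40 (0.804), Pabpn1 (0.800) and Fzd7 (0.794), again over arrays that share slide and scaling.

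The protein-coding genes of the Dlk1-Dio3 region are expressed from the paternal chromosome. Of their probes, 3 could be tested, 2 for the Notch-ligand-like Dlk1 and 1 for the thyroid-hormone deiodinase Dio3, and none was called at 1 or 3 months. Dlk1 had Log2 FC of 0.34 ± 0.58 and -0.14 ± 0.35 at 1 month and 0.87 ± 0.61 and 0.46 ± 0.52 at 3 months. Dio3 was at -0.42 ± 0.29 at 1 month, -0.95 ± 0.39 at 3 months (limma adjusted p = 0.156) and 1.27 ± 0.47 at 12 months, the last called higher by its unadjusted p (limma adjusted p = 0.549). At 12 months 0.311% of all probes were called higher. The Dlk1 probes were then at -0.13 ± 0.27 and 0.20 ± 0.31 and were not called.

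Malat1 had a negative Log2 FC at 3 months that was smaller than the fold threshold. Probe A_55_P2021187 was at 0.01, -0.58, -0.76 and -0.39 in TgproNGF#3 and at 0.19, -0.11, 0.43 and 0.04 in WT. The groups overlapped only at replicate 1 of TgproNGF#3. The Log2 FC of -0.57 ± 0.20 (SE, n = 4 and 4) had an unadjusted limma p of 0.0165 and a limma adjusted p of 0.101. The unadjusted p was above 0.05 with dim spots kept, with the percentile taken over all spots and with spike-in scaling, where the Log2 FC was -0.43, -0.43 and -0.52. With spike-in scaling all member probes shared the same SE (0.69), so that p does not reflect the spread of this probe alone. At 1 month the level was 0.56, 0.63, 0.41 and 0.53 against 0.69, -0.03, 0.71 and 0.11, a Log2 FC of 0.16 ± 0.21, and at 12 months -0.16, 0.05 and 0.45 against 0.07, 0.15 and -0.10, a Log2 FC of 0.08 ± 0.19. Malat1 had the highest correlation with Rn18s among the other members, a Pearson r of 0.64 over the 22 arrays.

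Neat1 had a positive Log2 FC at 1 month that was smaller than the fold threshold and had an unadjusted p below 0.05. Probe A_51_P234692 was at 1.75, 1.52, 2.04 and 1.503 in TgproNGF#3 and at 1.05, -0.29, 0.82 and 1.76 in WT. The 4 TgproNGF#3 mice were close together, and WT spread over 2.04 log2 units from replicate 2, the lowest, to replicate 4, which lay among the TgproNGF#3 mice. The Log2 FC was 0.87 ± 0.37 (limma adjusted p = 1.00). Without WT replicate 4 it was 1.17 ± 0.32, past both parts of the call, but its limma adjusted p was still 1.00. Without WT replicate 2 it was 0.49 ± 0.26. The unadjusted p was above 0.05 when any mouse other than WT replicate 4 was left out. It was also above 0.05 with dim spots kept, with the percentile over all spots and with spike-in scaling, where the Log2 FC was 0.80, 0.80 and 0.61. The SE with spike-in scaling (0.43) was again the same for all member probes. At 3 months Neat1 was at 1.81, 0.88, 1.69 and 1.87 against 1.76, 1.37, 1.68 and 1.76 (Log2 FC -0.08 ± 0.23), and at 12 months at 0.91, 1.28 and 1.77 against 1.06, 0.18 and 1.11 (0.53 ± 0.31, limma adjusted p = 0.591).

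**Figure D4:**
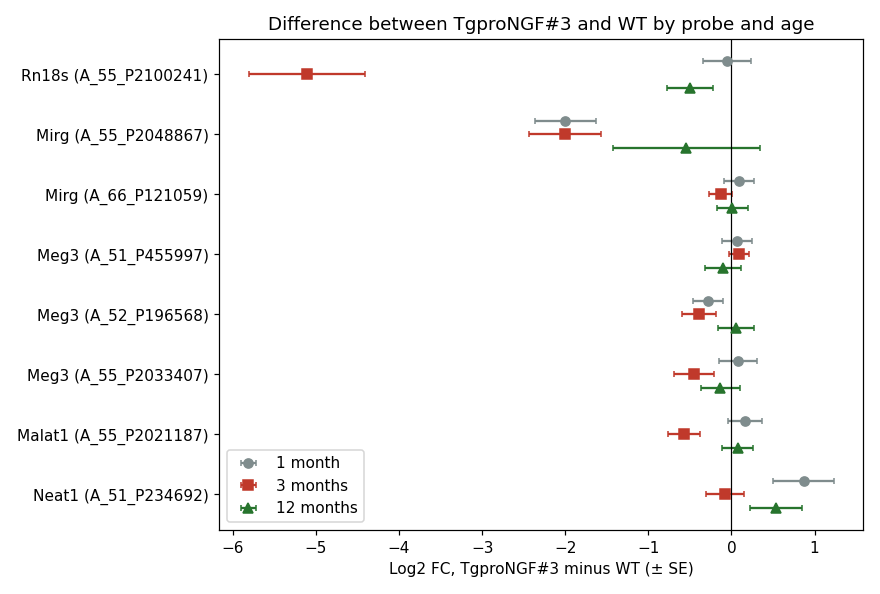
Log2 FC of TgproNGF#3 minus WT (horizontal axis) with its SE for each of the 8 probes (vertical axis) at 1, 3 and 12 months. Rn18s at 3 months (-5.11) and Mirg probe A_55_P2048867 at 1 and 3 months (-1.999 and -2.01) lie beyond 1 log2 unit, and all other values lie between -0.57 and 0.87.

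Proteins of the bodies that Malat1 and Neat1 occupy were listed as well. Of 25 probes for 14 paraspeckle and nuclear speckle proteins, 0 were called at 1 and 12 months and 4 were called lower at 3 months, where 6.12% of all probes were. Those 4 were probes of the speckle scaffold Srrm2 (-1.73 ± 0.39, limma adjusted p = 0.0296), the paraspeckle protein Rbm14 (-1.55 ± 0.38, limma adjusted p = 0.0444, with 3 TgproNGF#3 mice), the splicing factor Srsf1 (-1.07 ± 0.25, limma adjusted p = 0.0319) and Hnrnpk (-1.06 ± 0.31, limma adjusted p = 0.0650). Each of these genes had a further probe that was not called. For Srsf1 the others were at 0.13 ± 0.14 and 0.14 ± 0.13, unlike the called probe. Those of Srrm2, Rbm14 and Hnrnpk were at -0.97, -0.65 and -0.88. The median Log2 FC of the list at 3 months was -0.21, beside -0.12 for all probes.

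Whether the Log2 FC of the 6 accession-matched probes differed between ages was tested with an interaction term. No limma adjusted p was below 0.05. The unadjusted limma p was below 0.05 only for Malat1, at 0.0200 from 1 to 3 months and 0.0399 from 3 to 12 months. The largest change was for Neat1 from 1 to 3 months (-0.94 ± 0.46, limma adjusted p = 0.397), followed by Malat1 from 1 to 3 months (-0.73 ± 0.28, limma adjusted p = 0.260) and from 3 to 12 months (0.64 ± 0.28, limma adjusted p = 0.223). For Rn18s the Log2 FC changed by -5.06 ± 0.80 from 1 to 3 months and by 4.61 ± 0.91 from 3 to 12 months, given without a test. For Mirg probe A_55_P2048867 the changes were -0.01 ± 0.60 and 1.46 ± 1.01. The 3-month arrays enter both steps.

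Other long noncoding and small structural RNAs of a list of 62 genes had a probe for 37. Of the probes tested, 0 of 49 were called at 1 month, 5 of 45 were lower at 3 months (11.1%, beside 6.12% of all probes) and 2 of 49 were lower at 12 months (4.08%, beside 0.992%), with median Log2 FC of 0.06, -0.24 and -0.08 beside 0.07, -0.12 and 0.01 for all probes. The list includes Rn28s1, described above. At 3 months the others called were Norad, which binds Pumilio proteins, by 2 of its 4 probes, Snhg6, a small nucleolar RNA host gene (-1.19 ± 0.16, limma adjusted p = 0.0036), and 1 probe of Lncpint (-1.27 ± 0.47, limma adjusted p = 0.122). The other Lncpint probe was at -0.73 ± 0.40 and was not called. As with Mirg, the Norad probes were unlike each other: A_55_P2089304 was at -2.61 ± 0.40 (limma adjusted p = 0.0061) and A_55_P2106961 at -1.27 ± 0.41, while A_55_P2089310 was at -0.37 ± 0.22 and A_66_P106606 at -0.28 ± 0.15. At 12 months the 2 called were the host gene Snhg3 (-1.76 ± 0.42, limma adjusted p = 0.549) and the imprinted antisense RNA Airn (-1.01 ± 0.37). This Airn probe was named only through the authors' table of called probes, and without it 1 of 48 probes was called lower at 12 months (2.08%). The other Airn probe tested at that age was at -0.24 ± 0.14 and was not called.

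Over the probes that RefSeq classes as long noncoding, members left out, 5 of 671 were lower and 2 higher at 1 month, 20 of 503 lower and 11 higher at 3 months, and 4 of 501 lower and 1 higher at 12 months. The shares lower were 0.745%, 3.98% and 0.798%, against 0.328%, 6.12% and 0.992% of all probes, and the shares higher were 0.298%, 2.19% and 0.200%, against 0.242%, 0.643% and 0.311%. The median Log2 FC of this class was 0.09, -0.14 and -0.07.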

How the data were processed

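The authors deposited scanner output of Agilent Feature Extraction 10.7.3.1 for 22 one-colour arrays (62976 spots each), from which the processed Cy3 intensity was used, and a table of their own log2 values, used as an alternative. That table holds 28929 probes. Its scale and direction were checked against the scanner values here: within an array the difference between both was constant (SD at most 0.0066), so the authors' log2 values are log2 intensities with another centre, and their median per array was 9.41 to 9.73. Columns left without a sample numbered 0.

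Control spots, spots marked as outliers and spots without the flag for being well above background were dropped, log2 intensity was set relative to the 75th percentile of the array, and spots of a probe were averaged. At each age limma 3.58.1 (R 4.3.3) compared TgproNGF#3 with WT for probes with at least 2 values per group, two-sided, with Benjamini-Hochberg adjustment over all probes. Calls, as in the study's methods, needed an unadjusted p below 0.05 and a Log2 FC over 1 in size. The pipeline was tested on simulated data. The number of arrays limits the precision.

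Names came from RefSeq accessions (28026 probes) and then from the symbols, not the values, of the authors' table of called probes (179 probes). No genome of the arrays' build was used. Members, lists and rules were chosen with earlier results of these data known. Named were all members, up to 5 called genes of each companion list per age by the size of Log2 FC, the protein-coding neighbours, and the 5 genes most like Rn18s and Meg3. Structural RNAs, and the further Norad probes, were chosen after their values were seen.

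Replicate numbers are shared by the genotypes. At 1 month all same-numbered pairs deviated together (r = 0.51, 0.27, 0.19 and 0.21 over 36103 probes), so the numbers were taken as a possible pairing there. TgproNGF#3 replicate 4, however, matched WT replicate 2 best. Each pair shares a row of the slide, but replicates 1 and 2 share row 1 and replicates 3 and 4 row 2, so the row does not identify a pair. The main fits did not use this pairing. At 3 months (-0.36 to -0.02) and 12 months (-0.32 to 0.05) same-numbered pairs did not deviate together in this way.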

Additional observations from a re-analysis of the deposited data

Results flagged for a closer look

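A mouse far from the others of its group was found in 2 of the 44 groups of 4 examined (8 member probes, Rn28s1, Rs5-8s1 and Rnu1b6, at 1 and 3 months), and chance alone gives about 1 in 20. For Rn18s, WT replicate 2 at 3 months was at 4.19, where the next WT mouse was at 6.81. For Mirg probe A_55_P2048867, WT replicate 4 at 1 month was at -0.91, where the next was at 0.28. Groups of 3 were not examined in this way, which leaves out replicate 2 of TgproNGF#3 at 12 months.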

How the results depend on the processing

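The fall of Rn18s at 3 months lay between -5.12 and -4.90 under all settings that kept every mouse, and between -5.84 and -4.66 with each mouse left out. For Mirg probe A_55_P2048867 the ranges were -2.26 to -1.82 and -2.31 to -1.85 at 1 month, -2.01 to -1.81 and -2.33 to -1.71 at 3 months, and -0.93 to -0.02 and -1.31 to 0.59 at 12 months. Rs5-8s1 (-4.45 to -3.88), Rnu1b6 (-4.39 to -4.24) and Rn28s1 (-1.96 to -1.83) kept their direction at 3 months with every mouse kept, and ran from -5.04 to -4.10, -4.71 to -4.12 and -2.61 to -1.43 with each mouse left out. The call of Rn28s1 was lost in 4 of those 8 fits. The number of members called at 1 month was 0 with an adjusted p threshold and 2 without the fold threshold, and 1 to 2 with each mouse left out. With the spike-in controls as scale, Rn18s at 12 months was at 0.024. This scale moved the median Log2 FC of all probes from 0.07 to -0.19 at 1 month and from 0.01 to 0.53 at 12 months. All member probes shared 1 SE with it at each age (0.43, 0.69 and 0.56 at 1, 3 and 12 months). The share of calls that were lower was 57.6%, 90.5% and 76.1% at the 3 ages. It was 87.4%, 92.1% and 10.05% with spike-in scaling, 47.6%, 88.2% and 55.4% with median scaling, 40.5%, 85.2% and 44.8% with quantile normalization, and 69.2%, 81.8% and 79.4% with the percentile over all spots.

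The replicate block left the calls of members at 1, 2 and 0. The Rn18s Log2 FC at 1 month had an SE of 0.25 with it, and the adjusted p of Neat1 was 0.818. At 1 month it moved the lower and higher calls over all probes from 133 and 98 to 132 and 140, and it changed no other member's call. With the array row as a block instead, the lower and higher calls over all probes at 12 months went from 338 and 106 to 180 and 18.

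Sign changes were found only for uncalled values, and the cause was not tested. With dim spots kept, and equally with the percentile over all spots, Mirg probe A_66_P121059 was at 0.0029 at 3 months and -0.013 at 12 months, Neat1 at 0.058 at 3 months, Meg3 probe A_52_P196568 at 0.095 for 3 minus 1 months, and A_66_P121059 at -0.015 for 12 minus 3 months. Median scaling put Meg3 probes A_51_P455997 and A_55_P2033407 at 0.044 and 0.016 at 12 months, and quantile normalization put A_66_P121059 at -0.036. With spike-in scaling A_66_P121059, A_51_P455997, A_55_P2033407 and Malat1 were at -0.17, -0.20, -0.18 and -0.098 at 1 month, A_51_P455997 and A_55_P2033407 at 0.42 and 0.39 at 12 months, A_66_P121059 and A_52_P196568 at 0.096 and 0.21 for 3 minus 1 months, and A_51_P455997 at 0.28 for 12 minus 3 months. With the authors' log2 values A_51_P455997 was at -0.00080 at 1 month, Neat1 at 0.0068 at 3 months, and A_66_P121059, A_52_P196568 and Malat1 at -0.069, -0.031 and -0.0062 at 12 months. With the array row as a block A_66_P121059 and A_52_P196568 were at -0.19 and -0.018 at 12 months.

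With each mouse left out, the ranges at 1 month were -0.0032 to 0.17 for A_66_P121059, -0.011 to 0.15 for A_51_P455997 and -0.036 to 0.22 for A_55_P2033407. Neat1 ran from -0.18 to 0.15 at 3 months. At 12 months the ranges were -0.087 to 0.17 for A_66_P121059, -0.22 to 0.12 for A_51_P455997, -0.096 to 0.29 for A_52_P196568, -0.31 to 0.11 for A_55_P2033407 and -0.094 to 0.21 for Malat1. Between ages they were -0.060 to 0.098 for A_51_P455997 and -0.26 to 0.012 for A_52_P196568 (3 minus 1 months), and -0.31 to 0.032 for A_51_P455997 (12 minus 3 months). No adjusted p of the 6 accession-matched probes fell below 0.05 under any setting run.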
